A study of Xenopus laevis with 14 samples.

Results

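The genes described here mark neurons that use dopamine, noradrenaline, serotonin or acetylcholine as transmitters. They were chosen by symbol as every row of the count table whose name, without the .L or .S that tells the long from the short homeologous chromosome of *Xenopus laevis*, is *th*, *ddc*, *dbh*, *tph1*, *tph2*, *slc6a3*, *slc6a4*, *slc18a2*, *chat* or *slc18a3*. This gave 18 rows of 26807, covering 10 of 10 symbols: an .L and an .S row for 8 symbols, *tph1.L* for *tph1* and *slc6a3.S* for *slc6a3*. Whole brains of stage 47 tadpoles were sequenced as stranded mRNA libraries, each from 6 pooled brains, to ask how the brain transcriptome differs in models of developmental and epileptic encephalopathy. There were 4 libraries of *ap3b2* CRISPants, 5 of *eef1a2* CRISPants and 5 of controls. CRISPants are F0 tadpoles whose embryos received Cas9 protein with a guide RNA, here a guide to *ap3b2* (a subunit of the AP-3 vesicle adaptor) or to *eef1a2* (a translation elongation factor), so each tadpole is a mosaic of edited and unedited cells in a wild-type background. The unedited controls received Cas9 with a scrambled guide. Embryos of all groups came from 2 females, and no source says which pool came from which female, so p-values measure the spread between these pools.

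Neurons make dopamine from tyrosine through tyrosine hydroxylase (*th*) and aromatic amino acid decarboxylase (*ddc*), and noradrenaline from dopamine through dopamine beta-hydroxylase (*dbh*). Serotonin is made from tryptophan through a tryptophan hydroxylase (*tph1* or *tph2*) and the same decarboxylase, and acetylcholine through choline acetyltransferase (*chat*). Amines are packed into vesicles by the vesicular monoamine transporter (*slc18a2*) and acetylcholine by its own vesicular transporter (*slc18a3*), while the dopamine transporter (*slc6a3*) and the serotonin transporter (*slc6a4*) take released amine back into the terminal.

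Levels are given as CPM, the counts of a row relative to all counted pairs of a library, after TMM scaling. Differences are log2 fold changes, CRISPant over control, with their SE, tested with edgeR's quasi-likelihood test and adjusted over all genes tested (FDR). The libraries held 36563581 to 41029675 counted pairs in *ap3b2* CRISPants, 39016087 to 42568144 in *eef1a2* CRISPants and 39647384 to 46745977 in controls. A row was tested unless 4 or more libraries of the comparison had a CPM of 1 or less, which left 14 of the 18 rows in each comparison. In whole-brain RNA, fewer cells of a type and less RNA per cell cannot be told apart. Reads that match both homeologs equally may have been split or lost in counting, so a difference between .L and .S of a gene is less certain than the gene as a whole.

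Among these 14 rows, the plasma membrane transporters for dopamine and serotonin and the acetylcholine-making enzyme were lower in both CRISPant groups, by 2.02 to 3.05 times in *ap3b2* and 2.35 to 4.36 times in *eef1a2* CRISPants, while the enzymes of amine synthesis and the vesicular acetylcholine transporter differed by less than 2 times. In *ap3b2* CRISPants 5 rows were lower at an FDR below 0.05, against 22.8% of all genes tested, 1 was higher, against 20.0% of all genes, and 8 did not pass. All 5 lower rows also passed a fold change of 2, against 5.11% of all genes. In *eef1a2* CRISPants 8 rows were lower, against 21.4% of all genes, 0 were higher, against 18.8%, and 6 did not pass. The same 5 rows passed a fold change of 2 there, against 5.24% of all genes. Both comparisons used the same 5 control libraries. The median log2 fold change of the 14 rows was -0.28 in *ap3b2* and -0.41 in *eef1a2* CRISPants, where that of all genes tested was 0.03 in each.

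**Figure D1:**
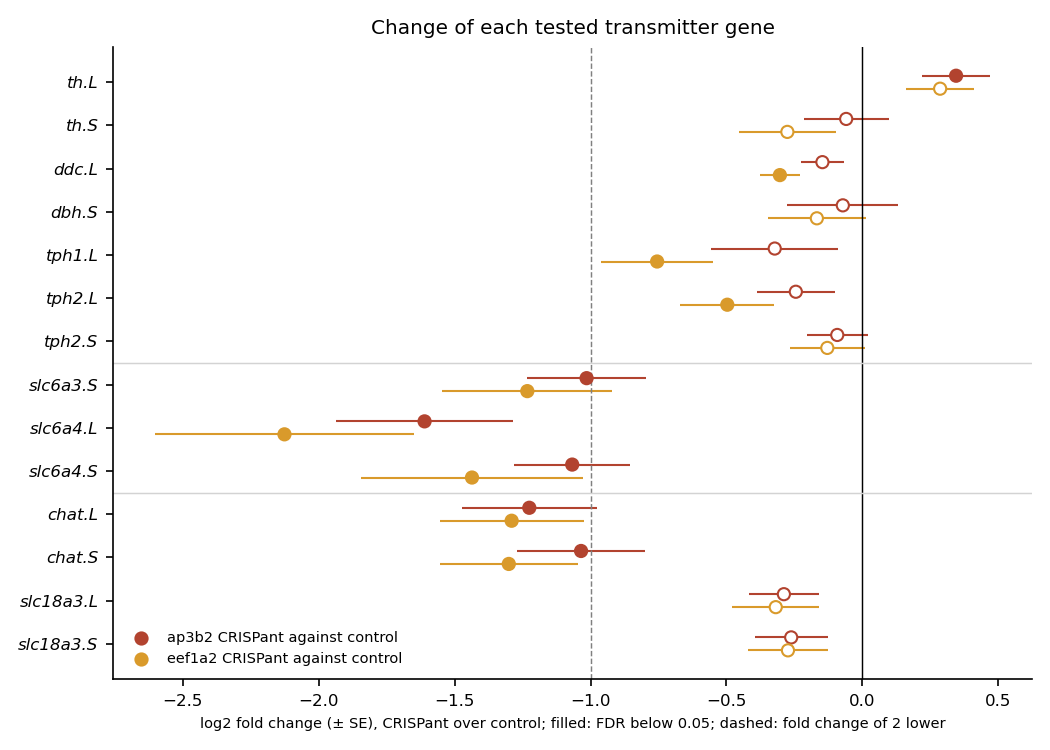
Log2 fold change (± SE) of each tested transmitter gene row in *ap3b2* CRISPants (red) and *eef1a2* CRISPants (orange) over the same controls, with filled points at an FDR below 0.05 and a dashed line at a fold change of 2 lower. The 5 rows of *slc6a3*, *slc6a4* and *chat* lie at or beyond that line in both groups, and all other rows lie between -0.76 and 0.34.

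*slc6a4* encodes the serotonin transporter, and its long homeolog had the largest difference of the 14 rows in both groups. *slc6a4.L* was at 1.73, 5.58, 3.10 and 7.53 CPM in *ap3b2* CRISPants, at 3.57, 7.54, 0.666, 2.76 and 1.22 CPM in *eef1a2* CRISPants, and at 11.7, 16.0, 14.8, 11.1 and 14.8 CPM in controls. Every CRISPant library lay below the lowest control, and the CRISPant libraries of each group spread over a wider range than the controls. The log2 fold change was -1.61 ± 0.33 (SE) in *ap3b2* CRISPants (edgeR FDR = 0.004) and -2.13 ± 0.48 in *eef1a2* CRISPants (edgeR FDR = 0.00925). Over the 10 *eef1a2* fits without 1 library it ranged from -2.74, without *eef1a2* replicate 2, to -1.86. The short homeolog *slc6a4.S* was at 1.91, 4.31, 2.90 and 3.54 CPM in *ap3b2* CRISPants, at 3.28, 5.49, 1.20, 1.26 and 1.05 CPM in *eef1a2* CRISPants, and at 7.26, 5.84, 8.03, 5.51 and 6.36 CPM in controls. Its groups did not overlap either, although *eef1a2* replicate 2 came close to the lowest control. It was lower by 2.10 times in *ap3b2* CRISPants (log2 fold change -1.07 ± 0.21, edgeR FDR = 0.00379) and by 2.71 times in *eef1a2* CRISPants (-1.44 ± 0.41, edgeR FDR = 0.0183). In a fit of all 14 libraries together the *ap3b2* call for *slc6a4.S* was lost, at an edgeR FDR of 0.0532.

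The balance of the *slc6a4* homeologs is a within-library measure that needs no scaling. There were 0.907 to 2.13 counts of *slc6a4.L* per count of *slc6a4.S* in *ap3b2* CRISPants (median 1.18), 0.553 to 2.18 in *eef1a2* CRISPants (median 1.16) and 1.61 to 2.73 in controls (median 2.02). The ranges overlap, and the medians of both CRISPant groups lie below the lowest control. Set against the enzyme of the same neurons, *slc6a4.L* gave 0.0897 to 0.419 counts per count of *tph2.S* in *ap3b2* CRISPants, 0.0308 to 0.388 in *eef1a2* CRISPants and 0.511 to 0.8289 in controls, with no overlap of either CRISPant group and the controls. This pair joins the transporter copy with the larger fall and the enzyme copy with the smaller change. For *slc6a4.S* and *tph2.L*, control replicate 2 had 240 and 396 counts. *ap3b2* replicate 2 had 162 and 261, and *eef1a2* replicate 2 had 231 and 273. For that pair both CRISPant groups therefore overlapped the controls.

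*slc6a3.S*, the dopamine transporter, was at 10.9, 8.93, 10.8 and 5.87 CPM in *ap3b2* CRISPants, at 8.37, 15.4, 5.23, 5.13 and 5.17 CPM in *eef1a2* CRISPants, and at 21.0, 24.3, 19.2, 13.97 and 13.1 CPM in controls. All *ap3b2* libraries lay below all controls, whereas *eef1a2* replicate 2 lay above the 2 lowest controls, replicates 4 and 5. In each CRISPant group, too, replicates 4 and 5, or 4 alone in *ap3b2* CRISPants, were the lowest libraries. The log2 fold change was -1.01 ± 0.22 in *ap3b2* CRISPants (edgeR FDR = 0.00509) and -1.23 ± 0.31 in *eef1a2* CRISPants (edgeR FDR = 0.0123). Thus the row sits at 49.5% of the control level in *ap3b2* CRISPants, just past the fold change of 2.

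*chat*, the enzyme that makes acetylcholine, was lower in both copies. *chat.L* was at 1.66, 4.12, 3.97 and 5.27 CPM in *ap3b2* CRISPants, at 3.62, 6.52, 2.51, 3.41 and 1.93 CPM in *eef1a2* CRISPants, and at 8.18, 8.63, 10.3, 8.29 and 8.35 CPM in controls. Every CRISPant library was below every control, with *ap3b2* replicate 4 and *eef1a2* replicate 2 closest to them. The log2 fold change was -1.23 ± 0.25 in *ap3b2* CRISPants (edgeR FDR = 0.00404) and -1.29 ± 0.26 in *eef1a2* CRISPants (edgeR FDR = 0.00796). *chat.S* was at 1.32, 2.47, 2.04 and 3.73 CPM in *ap3b2* CRISPants, at 2.00, 3.45, 1.13, 2.10 and 1.31 CPM in *eef1a2* CRISPants, and at 4.69, 4.48, 5.38, 4.71 and 5.20 CPM in controls. The groups were again apart, with the same libraries closest to the controls. *chat.S* was lower by 2.05 times in *ap3b2* CRISPants (log2 fold change -1.03 ± 0.24, edgeR FDR = 0.00622) and by 2.46 times in *eef1a2* CRISPants (-1.30 ± 0.25, edgeR FDR = 0.0078).

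**Figure D2:**
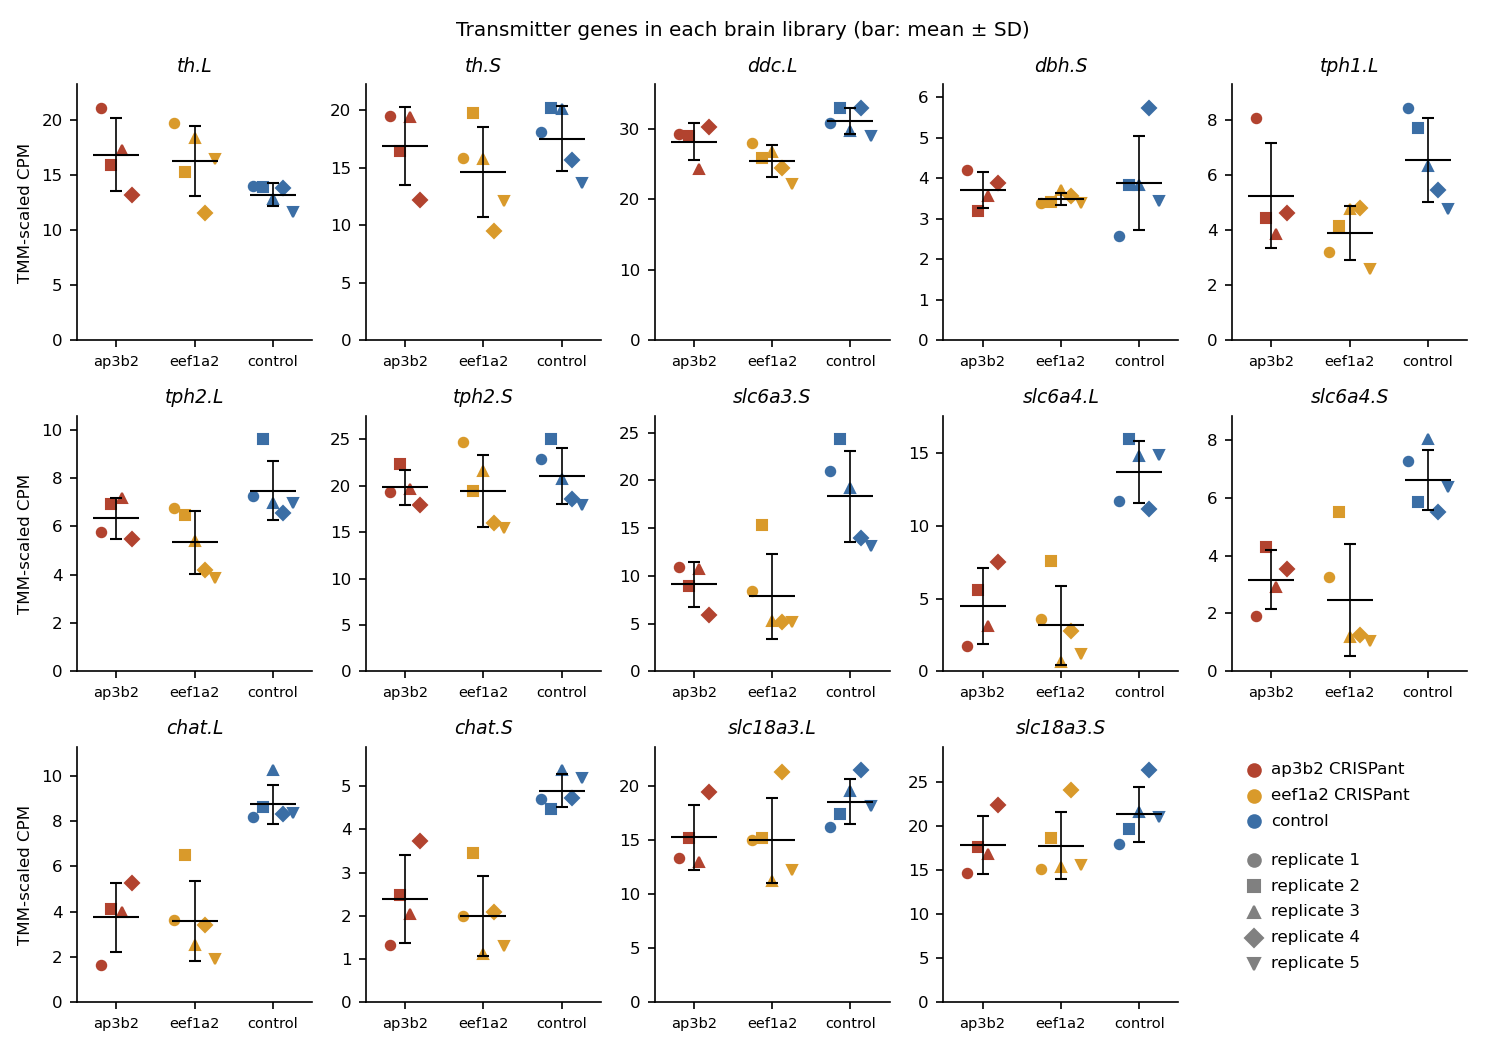
TMM-scaled CPM (linear axes from 0) of the 14 tested rows in each library, with *ap3b2* CRISPants, *eef1a2* CRISPants and controls from left to right, symbols for the replicate number and bars for the mean ± SD. For *chat* and *slc6a4* all CRISPant libraries lie below all controls, and for *th*, *dbh*, *tph1*, *tph2* and *slc18a3* the groups overlap.

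*slc18a3*, which loads acetylcholine into vesicles, is the direct neighbour of *chat*: in mammals it lies inside the *Chat* gene and is transcribed from the same locus. On assembly Xenopus_laevis_v10.1 *slc18a3.L* spans chromosome 7L, 52702245 to 52704856, and *chat.L* 52706809 to 52771894, with 1952 bases between them. *slc18a3.S* spans chromosome 7S, 43109315 to 43112596, and *chat.S* 43113964 to 43192804, with 1367 bases between them. *slc18a3.L* was at 13.3, 15.2, 12.99 and 19.5 CPM in *ap3b2* CRISPants, at 14.97, 15.2, 11.3, 21.3 and 12.2 CPM in *eef1a2* CRISPants, and at 16.2, 17.4, 19.6, 21.5 and 18.1 CPM in controls. The groups overlapped, with replicate 4 the highest library of each group. The log2 fold change was -0.29 ± 0.13 in *ap3b2* CRISPants (edgeR FDR = 0.0893) and -0.32 ± 0.16 in *eef1a2* CRISPants (edgeR FDR = 0.13). *slc18a3.S* had log2 fold changes of -0.26 ± 0.14 (edgeR FDR = 0.135) in *ap3b2* and -0.27 ± 0.15 (edgeR FDR = 0.153) in *eef1a2* CRISPants, with ranges of 14.7 to 22.4, 15.2 to 24.1 and 17.9 to 26.4 CPM in *ap3b2* CRISPants, *eef1a2* CRISPants and controls. Neither copy passed. Of the fits without 1 library, each copy passed in 1 of 9 in *ap3b2* and 1 of 10 in *eef1a2* CRISPants, those without replicate 4 of the CRISPants. *slc18a3.L* was then at -0.42 in *ap3b2* (edgeR FDR = 0.00509) and -0.48 in *eef1a2* CRISPants (edgeR FDR = 0.0121), and *slc18a3.S* at -0.39 and -0.41. Replicate 4 was the highest control for both copies as well. Without it, the *ap3b2* values were -0.23 for *slc18a3.L* (edgeR FDR = 0.167) and -0.18 for *slc18a3.S* (edgeR FDR = 0.27).

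Within a library, the ratio of the neighbours showed the unequal difference without scaling between libraries. *chat.L* and *chat.S* span 65086 and 78841 bases and *slc18a3.L* and *slc18a3.S* 2612 and 3282, and the ratio was not corrected for the trend with gene span given below. Without scaling for gene length, there were 0.124 to 0.305 counts of *chat.L* per count of *slc18a3.L* in *ap3b2* CRISPants (median 0.271) and 0.158 to 0.429 in *eef1a2* CRISPants (median 0.223), against 0.386 to 0.524 in controls (median 0.497). *ap3b2* CRISPants lay below all controls, and of the *eef1a2* CRISPants replicate 2 alone lay within the control range. For the short copies the ratio of *chat.S* to *slc18a3.S* was 0.0903 to 0.167 in *ap3b2* CRISPants (median 0.131), 0.0732 to 0.185 in *eef1a2* CRISPants (median 0.0872) and 0.178 to 0.261 in controls (median 0.246). The pattern was that of the long copies, with *eef1a2* replicate 2 the one CRISPant library inside the control range.

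**Figure D3:**
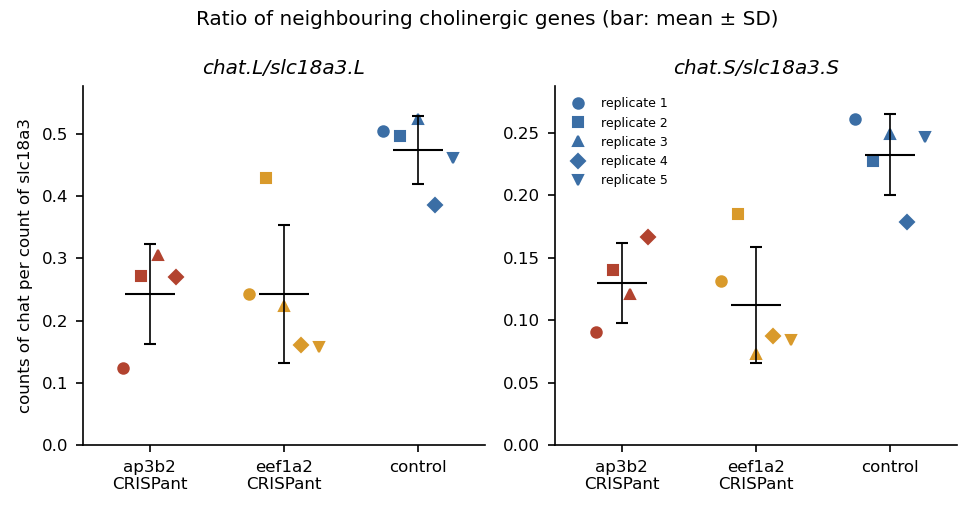
Counts of *chat* per count of the neighbouring *slc18a3* in each library for the .L copies (left) and the .S copies (right), with *ap3b2* CRISPants, *eef1a2* CRISPants and controls from left to right, symbols for the replicate number and bars for the mean ± SD. The 4 *ap3b2* libraries lie below all controls in both panels, and *eef1a2* replicate 2, at 0.429 and 0.185, is the one CRISPant library that reaches the controls.

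*th*, the first enzyme of dopamine and noradrenaline synthesis, did not follow the dopamine transporter. *th.L* was at 21.1, 15.9, 17.3 and 13.2 CPM in *ap3b2* CRISPants, at 19.8, 15.3, 18.4, 11.6 and 16.5 CPM in *eef1a2* CRISPants, and at 13.99, 13.96, 12.8, 13.8 and 11.6 CPM in controls. The groups overlapped, with most CRISPant libraries above the highest control, *ap3b2* replicate 4 within the control range and *eef1a2* replicate 4 just below it. *th.L* was the 1 row that was higher in *ap3b2* CRISPants (log2 fold change 0.34 ± 0.13, edgeR FDR = 0.0443), and it did not pass in *eef1a2* CRISPants (0.29 ± 0.13, edgeR FDR = 0.0895). The *ap3b2* call was lost in 8 of the 9 fits that left out 1 library, all but the one without *ap3b2* replicate 4 (0.45, edgeR FDR = 0.00382), and with library size alone in place of TMM (0.27, edgeR FDR = 0.0912). *th.S* did not pass in either group, with log2 fold changes of -0.06 ± 0.16 in *ap3b2* CRISPants (edgeR FDR = 0.778) and -0.28 ± 0.18 in *eef1a2* CRISPants (edgeR FDR = 0.235). There were 0.888 to 1.08 counts of *th.L* per count of *th.S* in *ap3b2* CRISPants, 0.777 to 1.36 in *eef1a2* CRISPants and 0.637 to 0.881 in controls, so that *ap3b2* CRISPants lay just above the controls and *eef1a2* CRISPants overlapped them. With the copies summed, *th* had a log2 fold change of 0.11 ± 0.13 in *ap3b2* CRISPants (edgeR FDR = 0.513) and -0.01 ± 0.14 in *eef1a2* CRISPants (edgeR FDR = 0.956).

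*ddc.L*, the decarboxylase shared by dopamine and serotonin synthesis, was at 29.3, 29.0, 24.3 and 30.2 CPM in *ap3b2* CRISPants, at 28.0, 25.9, 26.7, 24.4 and 22.2 CPM in *eef1a2* CRISPants, and at 30.9, 33.0, 29.7, 33.0 and 29.0 CPM in controls. The *eef1a2* libraries lay below all controls, and the *ap3b2* libraries overlapped them. The row was lower by 1.23 times in *eef1a2* CRISPants (log2 fold change -0.30 ± 0.07, edgeR FDR = 0.0108) and did not pass in *ap3b2* CRISPants (-0.15 ± 0.08, edgeR FDR = 0.156). *dbh.S*, which converts dopamine to noradrenaline, ranged from 3.19 to 4.20 CPM in *ap3b2* CRISPants, 3.38 to 3.72 CPM in *eef1a2* CRISPants and 2.59 to 5.75 CPM in controls. The control range covered all CRISPant libraries, with log2 fold changes of -0.07 ± 0.20 in *ap3b2* (edgeR FDR = 0.795) and -0.17 ± 0.18 in *eef1a2* CRISPants (edgeR FDR = 0.476).

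Of the tryptophan hydroxylases, *tph2* is the form of brain serotonin neurons in mammals, and *tph1* that of pineal and gut. *tph1.L* was at 8.07, 4.47, 3.88 and 4.62 CPM in *ap3b2* CRISPants, at 3.22, 4.16, 4.79, 4.80 and 2.60 CPM in *eef1a2* CRISPants, and at 8.46, 7.73, 6.33, 5.47 and 4.79 CPM in controls. The ranges overlapped, with *ap3b2* replicate 1 near the top of the controls and the highest *eef1a2* libraries level with the lowest control. It was lower by 1.69 times in *eef1a2* CRISPants (log2 fold change -0.76 ± 0.21, edgeR FDR = 0.0156) and did not pass in *ap3b2* CRISPants (-0.32 ± 0.23, edgeR FDR = 0.28). Of the 9 *ap3b2* fits without 1 library it passed in 1, that without *ap3b2* replicate 1 (-0.60, edgeR FDR = 0.0387). Without control replicate 1, the highest control, it was at -0.21 (edgeR FDR = 0.514). *tph2.L* was at 5.75, 6.94, 7.18 and 5.48 CPM in *ap3b2* CRISPants, at 6.77, 6.49, 5.41, 4.20 and 3.88 CPM in *eef1a2* CRISPants, and at 7.26, 9.63, 6.97, 6.55 and 6.99 CPM in controls. Control replicate 2 stood above all other libraries, and *eef1a2* replicates 4 and 5 were the lowest of all. The row was lower in *eef1a2* CRISPants (log2 fold change -0.50 ± 0.17, edgeR FDR = 0.039), a call that held in 3 of the 10 fits without 1 library, and did not pass in *ap3b2* CRISPants (-0.24 ± 0.14, edgeR FDR = 0.182). Its homeolog *tph2.S* ranged from 18.0 to 22.4 CPM in *ap3b2* CRISPants, 15.5 to 24.7 CPM in *eef1a2* CRISPants and 17.9 to 25.1 CPM in controls. It did not pass in either group (-0.09 ± 0.11, edgeR FDR = 0.526, and -0.13 ± 0.14, edgeR FDR = 0.472).

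The 4 rows that were not tested had few counts. *ddc.S* ranged from 0.204 to 0.771 CPM in *ap3b2* CRISPants, 0.381 to 0.773 CPM in *eef1a2* CRISPants and 0.168 to 0.505 CPM in controls. *dbh.L* ranged from 0.140 to 0.452, 0.167 to 0.613 and 0.147 to 0.673 CPM in the same groups. The vesicular monoamine transporter was nearly absent from these rows: *slc18a2.L* held 0.0241 to 0.229 CPM in *ap3b2* CRISPants, 0.0477 to 0.186 CPM in *eef1a2* CRISPants and 0.0208 to 0.0841 CPM in controls, or 1 to 9 read pairs a library. *slc18a2.S* held 1 pair in each of 2 libraries, *eef1a2* replicate 4 and control replicate 4, and 0 in the other 12, where a count of 0 allows up to 0.0623 to 0.0838 CPM (3 counts, counting error only). A row annotated *slc18a2-like.2.L*, looked up after these values were seen and outside the chosen symbols, was at 13.1, 12.6, 13.1 and 11.9 CPM in *ap3b2* CRISPants, at 15.6, 14.4, 12.0, 6.14 and 6.84 CPM in *eef1a2* CRISPants, and at 14.3, 16.0, 15.7, 12.1 and 11.4 CPM in controls. Its groups overlapped and it did not pass in either comparison (-0.14 ± 0.12 in *ap3b2*, edgeR FDR = 0.347, and -0.35 ± 0.24 in *eef1a2* CRISPants, edgeR FDR = 0.258).

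For *slc6a4.L* and both copies of *chat* the CRISPant libraries of each group spread more than the controls. The heat map of each library as a percentage of the control mean shows *slc6a4.L* at 12.7% to 55.0% in *ap3b2* CRISPants and 4.87% to 55.1% in *eef1a2* CRISPants, and *chat.L* at 18.9% to 60.3% in *ap3b2* and 22.1% to 74.6% in *eef1a2* CRISPants. *ap3b2* replicate 1 was the lowest library of its group for *slc6a4* and *chat*, and replicate 4 the lowest for *slc6a3.S*, at 32.0%, while its *slc18a3.L* was at 105%. *eef1a2* replicate 2 was the highest library of its group for all 5 rows, from 55.1% for *slc6a4.L* to 83.9% for *slc6a3.S*. The 5 rows therefore do not rank the *ap3b2* libraries alike. Editing of the brains in each pool was not analysed here.

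**Figure D4:**
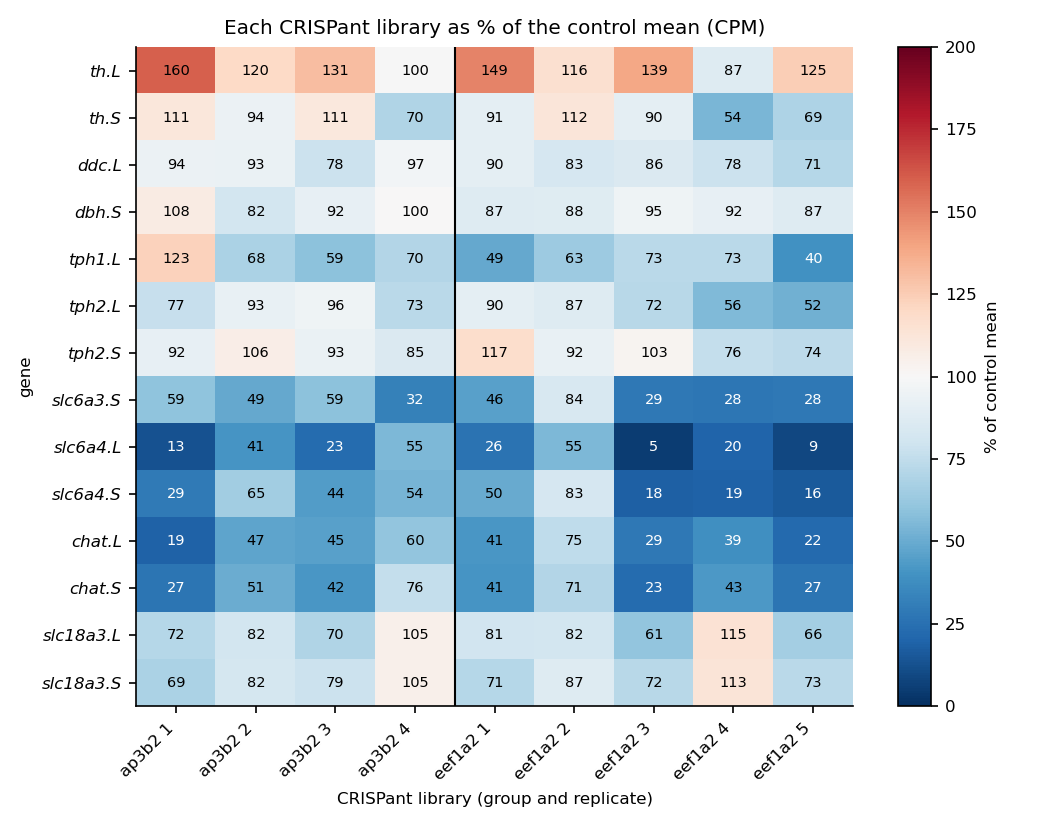
CPM of each tested row in every CRISPant library as a percentage of the mean of the 5 controls, with *ap3b2* libraries left and *eef1a2* libraries right of the black line and colours from 0% (blue) to 200% (red). The 5 rows of *slc6a3*, *slc6a4* and *chat* form a block below 100% in all 9 libraries. It is palest in *eef1a2* replicate 2 for *slc6a3.S*, *slc6a4.S* and *chat.L*, and in *ap3b2* replicate 4 for *chat.S*. *th.L* is close to or above 100% in all but *eef1a2* replicate 4.

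Without overlap between the libraries of the groups, 5 of the 14 rows were lower in *ap3b2* CRISPants than in controls (*slc6a3.S* and both copies of *slc6a4* and *chat*), against 14.4% of all genes tested. In *eef1a2* CRISPants 5 rows were (*ddc.L* and both copies of *slc6a4* and *chat*), against 10.0% of all genes. In either comparison 0 rows were higher without overlap, for which the share of all genes was not counted. The count of 5 rows lower by more than 2 times in *ap3b2* CRISPants became 2 without *ap3b2* replicate 1 (*slc6a4.L* and *slc6a3.S*), 2 without control replicate 3 (*slc6a4.L* and *chat.L*) and 2 after removal of a trend with gene span (*slc6a4.L* and *chat.L*), while the FDR of all 5 stayed below 0.05 in these fits. In the same fits 724 of 20909, 945 of 20861 and 839 of 20800 genes were lower by more than 2 times. Without these changes it was 1063 of 20800. In *eef1a2* CRISPants the count of 5 became 0, and the count of 8 lower rows became 1 (*tph1.L*), when replicates 1 to 3 of both groups were used alone, with edgeR FDR of 0.0597 for *chat.L*, 0.0649 for *chat.S*, 0.0623 for *slc6a3.S*, 0.0833 for *slc6a4.L* and 0.119 for *slc6a4.S* and log2 fold changes of -1.09 to -1.86. Over all genes, replicates 1 to 3 alone gave 1169 lower of 21105 tested and 406 lower by more than 2 times. All libraries gave 4425 and 1083 of 20682. With replicates 4 and 5 alone, all 5 rows passed both limits, with *slc6a4.L* at -2.71 and *slc6a4.S* at -2.36. In that fit 811 of 21483 genes were lower by more than 2 times.

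The direct comparison of *ap3b2* with *eef1a2* CRISPants called 0 of the 14 rows and 0% of all genes in either direction. Its log2 fold changes, *ap3b2* over *eef1a2*, ranged from 0.00 for *slc18a3.S* to 0.51 ± 0.62 for *slc6a4.L*. Those of the other 4 rows were 0.36 ± 0.49 for *slc6a4.S*, 0.21 ± 0.34 for *slc6a3.S*, 0.26 ± 0.36 for *chat.S* and 0.06 ± 0.38 for *chat.L*. At an unadjusted p below 0.05 there were 0 of these rows and 179 of the 20584 genes tested with edgeR, and DESeq2 called 0 genes as well. For these 5 rows the SE exceeded the difference, so differences of that size between the CRISPant groups were not detectable in these libraries.

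Other genes of these pathways numbered 85 rows, of which 73 were tested. In *ap3b2* CRISPants 10 were lower, against 22.8% of all genes tested, 17 were higher, against 20.0%, and 46 did not pass. Lower by more than 2 times was 1 of the 73, against 5.11% of all genes, and the median log2 fold change was 0.14. In *eef1a2* CRISPants 12 were lower, against 21.4% of all genes, 17 were higher, against 18.8%, and 44 did not pass. Again 1 was lower by more than 2 times, against 5.24% of all genes, and the median was 0.09. The lower rows lay mainly in the list of uptake and packaging and the list of breakdown, as the plot of pathway genes by list shows.

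**Figure D5:**
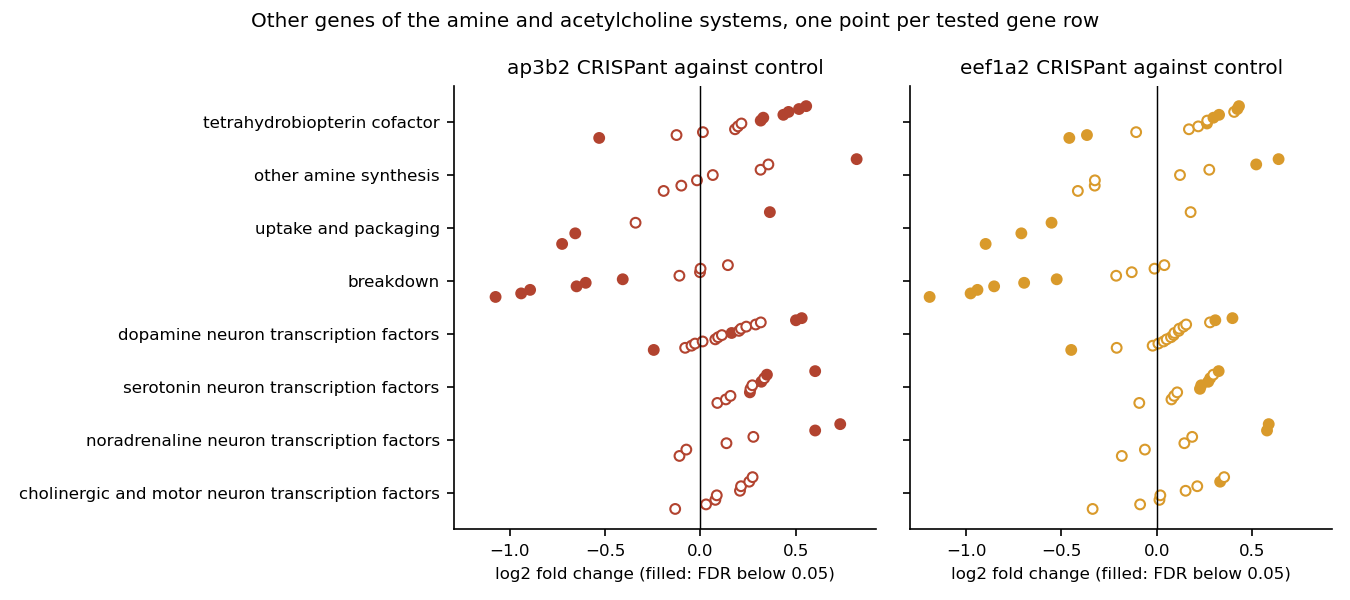
Log2 fold change of the other tested genes of the amine and acetylcholine systems, 1 point a gene row, in *ap3b2* CRISPants (left, red) and *eef1a2* CRISPants (right, orange) over controls, by list, with filled points at an FDR below 0.05. Breakdown genes hold 6 of 10 rows lower in both groups, and the transcription factors of serotonin neurons hold 4 of 10 higher in *ap3b2* and 5 of 10 in *eef1a2* CRISPants.

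Of the breakdown genes, 6 of 10 rows were lower and 0 higher in each CRISPant group, where 22.8% of all genes were lower in *ap3b2* and 21.4% in *eef1a2* CRISPants. *prima1.L*, which in mammals anchors acetylcholinesterase to the membrane of brain neurons, was the one row past a fold change of 2, at 2.24, 2.55, 2.79 and 8.59 CPM in *ap3b2* CRISPants, at 3.33, 5.52, 1.44, 5.61 and 2.86 CPM in *eef1a2* CRISPants, and at 7.78, 7.71, 9.30, 8.61 and 9.21 CPM in controls. *ap3b2* replicate 4 lay within the controls and all other CRISPant libraries below them. Its log2 fold change was -1.07 ± 0.34 in *ap3b2* CRISPants (edgeR FDR = 0.0263) and -1.19 ± 0.29 in *eef1a2* CRISPants (edgeR FDR = 0.0114). The other 5 lower rows were *prima1.S*, *maob.L* and *maob.S* (monoamine oxidase B, which breaks down amines), *ache.S* (acetylcholinesterase) and *colq.L* (its collagen tail), with log2 fold changes of -0.41 to -0.94 in *ap3b2* and -0.52 to -0.98 in *eef1a2* CRISPants. *ache.L*, the copy with more counts, did not pass, at 210.4 to 243 CPM in *ap3b2* CRISPants, 196 to 256 CPM in *eef1a2* CRISPants and 231 to 254 CPM in controls.

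Of the uptake and packaging genes, 2 of 4 tested rows were lower and 1 higher in *ap3b2* CRISPants and 3 of 4 lower and 0 higher in *eef1a2* CRISPants, beside the same shares of all genes (22.8% and 21.4% lower). Both copies of *slc5a7*, the choline transporter that feeds acetylcholine synthesis, were lower in both groups. The third lower row in *eef1a2* CRISPants was *slc10a4.S* (-0.55, edgeR FDR = 0.0185), and the higher row in *ap3b2* CRISPants was its homeolog *slc10a4.L* (0.36, edgeR FDR = 0.00887). *slc5a7.S*, the row of this list with the smallest p in *ap3b2* CRISPants, was at 3.90, 5.40, 3.71 and 5.99 CPM in *ap3b2* CRISPants, at 3.28, 6.61, 2.92, 4.78 and 3.55 CPM in *eef1a2* CRISPants, and at 7.80, 7.95, 8.95, 7.24 and 7.20 CPM in controls. The groups did not overlap, with a log2 fold change of -0.73 ± 0.16 in *ap3b2* CRISPants (edgeR FDR = 0.00493) and -0.90 ± 0.20 in *eef1a2* CRISPants (edgeR FDR = 0.00963). *slc6a2.S*, the noradrenaline transporter, was left out by the filter and was looked at after its values were seen: it held 11, 5, 6 and 19 pairs in *ap3b2* CRISPants, 7, 20, 5, 12 and 7 in *eef1a2* CRISPants, and 61, 58, 49, 45 and 42 in controls. No CRISPant library reached the lowest control, and without the filter the log2 fold change was -2.07 ± 0.34 in *ap3b2* (edgeR FDR = 0.00247) and -2.12 ± 0.32 in *eef1a2* CRISPants (edgeR FDR = 0.00747).

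Of the 12 rows for tetrahydrobiopterin, the cofactor of *th* and *tph*, 6 were higher and 1 lower in *ap3b2* CRISPants and 5 higher and 2 lower in *eef1a2* CRISPants, where 20.0% and 18.8% of all genes were higher in these groups. Among them were *gch1.S*, the first enzyme of its synthesis, lower in both (-0.53, edgeR FDR = 0.0265, and -0.46, edgeR FDR = 0.0417) and *gch1.L* at 0.01 and -0.11 without a call. The row with the smallest p in *ap3b2* CRISPants was *pcbd2.L*, a recycling enzyme of the cofactor (0.55 ± 0.12, edgeR FDR = 0.00563, and 0.42 in *eef1a2* CRISPants, edgeR FDR = 0.0115). Transcription factors of serotonin neurons were higher in 4 of 10 rows in *ap3b2* and 5 of 10 in *eef1a2* CRISPants, against 20.0% and 18.8% of all genes, and lower in 0, led in *ap3b2* CRISPants by *fev.L*, which in mammals switches on *Tph2* and *Slc6a4* together. *fev.L* was at 4.79, 5.11, 4.11 and 4.26 CPM in *ap3b2* CRISPants, at 4.24, 3.14, 4.77, 2.81 and 3.65 CPM in *eef1a2* CRISPants, and at 3.01, 3.45, 2.53, 2.90 and 3.08 CPM in controls. The *ap3b2* libraries lay above all controls (log2 fold change 0.60 ± 0.13, edgeR FDR = 0.0055), and the *eef1a2* libraries overlapped them (0.30 ± 0.16, edgeR FDR = 0.146). The 10 rows of this list summed to 362 to 462 CPM in *ap3b2* CRISPants, 370 to 414 CPM in *eef1a2* CRISPants and 317 to 360 CPM in controls, far above *fev.L*. Which cells expressed its other rows was not tested.

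Of 16 rows for transcription factors of dopamine neurons, 3 were higher and 1 lower in *ap3b2* CRISPants and 2 higher and 1 lower in *eef1a2* CRISPants, shares below those of all genes. *en1.L*, which in mammals keeps midbrain dopamine neurons alive, had the smallest p of the list in *ap3b2* CRISPants (0.53, edgeR FDR = 0.00365, and 0.40 in *eef1a2* CRISPants, edgeR FDR = 0.0155), and *otp.S*, a factor of hypothalamic dopamine neurons in zebrafish, was the lower row (-0.24, edgeR FDR = 0.0291, and -0.45, edgeR FDR = 0.0117). Of 8 tested rows for cholinergic and motor neurons 0 passed in *ap3b2* CRISPants, against 22.8% lower and 20.0% higher of all genes. In *eef1a2* CRISPants 0 were lower, against 21.4% of all genes, and 1 was higher, against 18.8%. It was *lhx3.L*, a motor neuron factor in mammals (0.33, edgeR FDR = 0.0392, and 0.26 in *ap3b2* CRISPants, edgeR FDR = 0.0732). Of 7 tested rows for histamine, adrenaline and melatonin synthesis, 1 was higher in *ap3b2* CRISPants, against 20.0% of all genes, and 2 in *eef1a2* CRISPants, against 18.8%. *aanat.L*, the pineal enzyme that turns serotonin towards melatonin, was the 1 row called in *ap3b2* CRISPants (0.82 ± 0.26, edgeR FDR = 0.0253), at 4.76, 4.07, 2.65 and 2.17 CPM. It was at 2.77, 2.93, 4.36, 2.63 and 2.45 CPM in *eef1a2* CRISPants (0.64 ± 0.21, edgeR FDR = 0.0303) and at 2.25, 1.97, 2.49, 1.33 and 1.57 CPM in controls.

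Markers of other cell types also differed between the groups, and their part in the results above was not tested. Summed over 20 rows of pan-neuronal markers, levels were 7401 to 7724 CPM in *ap3b2* CRISPants, 7123 to 7917 CPM in *eef1a2* CRISPants and 6641 to 7496 CPM in controls. Of these rows 4 were lower and 5 higher in *ap3b2* and 3 and 4 in *eef1a2* CRISPants, near the shares of all genes. Those shares were 22.8% lower and 20.0% higher in *ap3b2* and 21.4% and 18.8% in *eef1a2* CRISPants. Lower by more than 2 times were 5.11% and 5.24% of all genes. The 4 rows of the vesicular glutamate transporters *slc17a6* and *slc17a7* were lower in both groups, with sums of 206 to 392, 177 to 362 and 430 to 482 CPM. Of the endothelial markers 7 of 9 tested rows were lower in *ap3b2* and 4 of 7 in *eef1a2* CRISPants, 4 and 3 of them by more than 2 times, with sums of 64.9 to 103 CPM, 66.2 to 109 CPM and 91.8 to 114 CPM. Of 6 oligodendrocyte rows both copies of *mag*, a myelin protein, were lower by more than 2 times in each group, with sums of 289 to 480 CPM, 380 to 520 CPM and 368 to 627 CPM. Of 4 rows for GABA neurons 1 was lower in each group, *gad2.L*, which makes GABA, by more than 2 times. The sums of the 4 rows overlapped, at 1405 to 1498 CPM, 1362 to 1542 CPM and 1342 to 1634 CPM. Their median log2 fold change was 0.01 in *ap3b2* and -0.002 in *eef1a2* CRISPants. Pineal markers, of which *aanat* and the amine list share rows, summed to 9.41 to 23.3 CPM, 11.8 to 19.3 CPM and 9.81 to 13.4 CPM, and epidermal keratins to 162 to 201 CPM, 139 to 188 CPM and 127 to 174 CPM, with 2 of 4 tested keratin rows higher by more than 2 times in each group. Over all genes 16 of 20800 were so in *ap3b2* and 18 of 20682 in *eef1a2* CRISPants. The Hox genes of the spinal cord were below 1 CPM in 7 of 7 rows.

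Genes with long spans were lower more often than short ones across the genome. With the genes placed in 4 equal bins by span, 8.78% of the shortest bin were lower at an FDR below 0.05 in *ap3b2* CRISPants, and 13.96%, 24.5% and 40.3% of the following bins, and in *eef1a2* CRISPants 8.83%, 14.04%, 23.7% and 36.0%. The 5 lower rows span 37491 to 78841 bases, within the upper bins, while *slc18a3.L* and *slc18a3.S* span 2612 and 3282 bases. *th.L*, with 27230 bases, and *th.S*, with 31941, lie in the same bin as *slc6a3.S*. *tph2.S*, with 99105 bases the longest of the 15 rows whose position is known, and *ddc.L*, with 48810, differed from controls by at most 1.23 times. *ddc.L* was called lower in *eef1a2* CRISPants (edgeR FDR = 0.0108). *tph2.L*, whose position is not known, was lower there by 1.41 times (edgeR FDR = 0.039). The part of gene span in these differences was not tested. With the trend with span removed, the log2 fold changes of *chat.L* became -1.07 in *ap3b2* and -1.18 in *eef1a2* CRISPants, and those of *slc6a4.L* -1.46 and -2.03. *slc18a3.L* then passed in both groups, at -0.49 (edgeR FDR = 0.0163) and -0.51 (edgeR FDR = 0.0287), as did *slc18a3.S* at -0.46 in each (edgeR FDR = 0.021 and 0.0239). Those of *chat.S* became -0.85 and -1.16, of *slc6a4.S* -0.88 and -1.31 and of *slc6a3.S* -0.94 and -1.18, so that these 3 rows were lower by less than 2 times in *ap3b2* CRISPants.

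The targeted genes were checked in the same libraries. *ap3b2.S* was at 61.8 to 80.1 CPM in *ap3b2* CRISPants and 70.1 to 74.8 CPM in controls (log2 fold change -0.07 ± 0.07, edgeR FDR = 0.442), and *eef1a2.L* at 123 to 172 CPM in *eef1a2* CRISPants and 137 to 158 CPM in controls (-0.06 ± 0.08, edgeR FDR = 0.564). *ap3b2.L* was lower in both groups (-0.57 in *ap3b2* CRISPants, edgeR FDR = 0.00691, and -0.58 in *eef1a2* CRISPants, edgeR FDR = 0.0119), and *eef1a2.S* did not pass in *eef1a2* CRISPants (-0.01, edgeR FDR = 0.885). Frameshift edits need not lower transcript levels, so these counts do not check the labels.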

How the data were processed

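After trimming, the authors mapped the reads to *X. laevis* v10.1 with STAR and made a table of reverse-stranded pair counts with featureCounts, deposited for 26807 genes without normalization. Versions are not given in the sources used here. A second deposited table holds log2 CPM values of 21328 genes, which equal those edgeR gives with a prior count of 2 to within 4.99e-09 and served to check the columns. The values of 0 pairs of libraries were identical. Groups and replicate numbers were read from the sample labels. The series text gives 5 replicates a condition, whereas 4 *ap3b2* libraries were analysed here.

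The analysis used R 4.3.3 and edgeR 4.0.16. A gene was removed where its CPM was at most 1 in 4 libraries or more among those compared, leaving 20800 genes (*ap3b2*, controls), 20682 genes (*eef1a2*, controls) and 20584 genes (*ap3b2*, *eef1a2*). After TMM scaling, each pair of groups was tested with glmQLFit and glmQLFTest on a model of group alone, with Benjamini-Hochberg adjustment over all genes tested. The study names edgeR, this filter and the limits of FDR 0.05 and fold change 2, but no test within edgeR, and calls at any fold were added here. The SE came from the F statistic. CPM values were scaled over all 14 libraries, fold changes within the libraries compared.

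The members and the gene lists were chosen with earlier results of these data known. Of the other pathway genes, the rows named were those called at a fold change above 2 in either CRISPant group or, in a list without one, the row with the smallest p in *ap3b2* CRISPants, besides rows that complete a count of 5 or fewer or are said to be chosen by their values. The row named by this rule in the list for noradrenaline neurons is not reported here. RefSeq genes of assembly Xenopus_laevis_v10.1 gave positions for 15 of the 18 rows. The trend with span was removed by an offset per library from a lowess fit on the log10 span. Before TMM scaling, a CPM of 1 stood for 36.6 to 46.7 counts, and the SD covers counting error and differences between pools. DESeq2 1.42.0, other filters and scalings, summed homeologs, subsets of libraries and a block for replicate number were tried as alternatives.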

Additional observations from a re-analysis of the deposited data

Results flagged for a closer look

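In 5 of 54 groups of libraries, 1 library lay far from the rest of its group by Dixon's test. For measured levels chance gives this in about 1 of 20 groups, a rate that does not hold for rows of a few read pairs. The *ap3b2* group of *slc18a2.S*, counted among the 54, held 0 pairs throughout and could not be flagged. Control replicate 2 was at 9.631 CPM for *tph2.L*, the serotonin-making enzyme, where the other controls were at 6.545 to 7.256 CPM. Control replicate 3 was at 10.25 CPM for *chat.L*, where the other controls were at 8.182 to 8.634 CPM, all above every CRISPant library. The remaining 3 were rows of the vesicular monoamine transporter with a few read pairs each. *slc18a2.L* was at 0.1865 CPM in *eef1a2* replicate 1 and at 0.04767 to 0.07136 CPM in the other *eef1a2* libraries, and *slc18a2.S* at 0.02529 CPM in *eef1a2* replicate 4 and at 0.02105 CPM in control replicate 4, each a single pair, with 0 in the other libraries of both groups.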

How the results depend on the processing

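The 5 rows of *slc6a3*, *slc6a4* and *chat* had log2 fold changes below 0 against controls under every alternative run for both CRISPant groups, and 0 of the values of the 14 rows changed sign with a call. The alternatives moved the following counts by over 1.5 times. The 1 row higher in *ap3b2* CRISPants (*th.L*) became 0 with library size alone, in 1 fit of all 14 libraries, with summed homeologs, with the replicate block and with the block and the span trend removed, and was 0 to 1 without 1 library. The count lower by more than 2 times in *ap3b2* CRISPants became 2 with the span trend removed, 3 with the block and the span trend removed and 3 of the base symbols with homeologs summed, and was 2 to 5 without 1 library. The count lower there at any fold became 8 with the block and the span trend removed and 3 with homeologs summed, and within 1.5 times it was 7 with the span trend removed or with replicates 1 to 3 alone, 6 with the block, 4 in 1 fit of all 14 libraries and 5 to 7 without 1 library. Over all genes the lower, higher and 2-fold lower counts in *ap3b2* CRISPants were 4732, 4153 and 1063 of 20800 in the fit above. They were 4439, 3979 and 839 with the span trend removed, and 3541, 2709 and 901 of 20868 with the block as well. In 1 fit of all 14 libraries they were 4078, 4058 and 930 of 20414, and with homeologs summed 2847, 2580 and 499 of 13314. Without 1 library they ranged over 3526 to 5733, 2427 to 5568 and 724 to 1791. In *eef1a2* CRISPants, replicates 1 to 3 alone gave 1 lower row and 0 past a fold change of 2, homeologs summed gave 5 and 3 base symbols, and the higher count was 0 to 1 without 1 library, *th.L* without *eef1a2* replicate 4. Over all genes, replicates 1 to 3 alone gave 1169 lower and 406 lower by more than 2 times of 21105 in *eef1a2* CRISPants. They gave 6383 lower of 21083 in *ap3b2* CRISPants. With homeologs summed, *eef1a2* CRISPants had 2713 and 494 of 13248. Without *eef1a2* replicate 4, 4099 of 20788 genes were higher there. Homeologs summed merge rows by construction. The cause of the other moves was not tested.

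Whether libraries of the same replicate number were handled together cannot be told from these data. In every group *th.S* was lower in replicates 4 and 5 (4 alone in *ap3b2* CRISPants) than in replicates 1 to 3. It was at 13.7 to 15.7 against 18.1 to 20.2 CPM in controls. The values were 9.56 to 12.2 against 15.8 to 19.7 CPM in *eef1a2* and 12.2 against 16.5 to 19.5 CPM in *ap3b2* CRISPants. *tph2.S*, *slc6a3.S* and *slc18a2-like.2.L* split likewise, and the other tested rows of the chosen symbols did not in all groups. The source of this split was not tested. Same-numbered libraries of *ap3b2* CRISPants and controls deviated together with correlations of -0.06 to 0.31. Those of *eef1a2* CRISPants and controls had -0.22 to 0.36, and those of the CRISPant groups -0.06 to 0.63. The value of 0.63 was that of replicate 4, where the *ap3b2* library correlated best with the *eef1a2* library of its own number. With the replicate block, *ap3b2* CRISPants had 6 lower, 0 higher and 5 rows past a fold change of 2, and *eef1a2* CRISPants had 9, 0 and 5, with *slc18a3.S* passing in both (-0.26, edgeR FDR = 0.0498, and -0.29, edgeR FDR = 0.0368). Over all genes the block gave 3504 lower, 2548 higher and 1092 lower by more than 2 times of 20868 in *ap3b2* CRISPants. It gave 4487, 3774 and 1258 of 20682 in *eef1a2* CRISPants. Of the CRISPant libraries, 1 of 4 and 1 of 5 correlated best with the control of their own number. With library size alone, calls over all genes shifted to 5412 lower and 2574 higher in *ap3b2* CRISPants and 5082 and 2331 in *eef1a2* CRISPants, against 4732 and 4153, and 4425 and 3878, with TMM. Pools of 6 brains and 4 or 5 libraries a group limit what small differences, such as those of *slc18a3* and *th*, can show, and rows under 1 CPM were not tested.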
